A study of Homo sapiens with 9 samples.

Results

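The genes described here are the ubiquitin-like ATG8 proteins of the autophagosome and the cargo receptors that bind them, 10 of the 61544 genes listed. They were chosen by name: MAP1LC3A, MAP1LC3B, GABARAP, GABARAPL1 and GABARAPL2 form the ATG8 family, and SQSTM1, NBR1, OPTN, CALCOCO2 and TAX1BP1 are the receptors. All 10 were among the 14727 genes that passed the expression filter. MAP1LC3A passed it through the treated cells alone, since 0 of 3 VEH libraries reached the minimum of 0.608 CPM (counts scaled to library size), so a difference in that gene was built into its passing, and counts below are also given for the 9 others.

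RNA was measured in HMC3 cells, a human microglial line of wild-type genotype immortalized with SV40 large T antigen, in 9 libraries after 6 days of treatment: 3 of SLO, 3 of SLO ½ and 3 of VEH. SLO is a mixture of SBI-0206965 at 10 µM, which inhibits ULK1, the kinase that starts autophagy, Lopinavir at 1 µM, which blocks Lamin A maturation, and O-151 at 1 µM, which inhibits the DNA glycosylase OGG1. SLO ½ contained the same compounds at 5, 0.5 and 0.5 µM, and VEH cells received DMSO, the solvent present in every group. The compounds were only given together, so the share of each in any difference cannot be told apart. The labels do not say whether the 3 libraries of a group came from separate cultures, so p-values measure the spread between these libraries, which may be technical.

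Reads assigned to genes ranged from 14834295 to 19674841 per library, and mitochondrial transcripts took 1.30% to 1.61% of them with VEH, 2.30% to 2.86% with SLO ½, and 2.51% to 3.12% at the full dose. The microglial label was poorly matched by the RNA: of 10 microglia markers, P2RY12 had 0 counts in every library, AIF1, CX3CR1 and SPI1 had at most 1, and the highest count was 20, for TREM2. The markers summed to 1.46 to 2.52 TPM (a level scaled to gene length and library size) with VEH, 4.11 to 6.31 with SLO ½, and 4.80 to 5.08 at the full dose. The 8 mesenchymal markers summed to 9065 to 10092, 8389 to 8810 and 7874 to 8144 TPM in the same order. In counts per library, FN1 had 187133 to 389193, COL1A1 36859 to 55090, VIM 26812 to 38490 and COL3A1 0 to 4. The 6 astrocyte markers summed to 269 to 273, 377 to 414 and 488 to 539 TPM, but were uneven. GJA1 had 2900 to 6353 counts, SLC1A3 192 to 600 and ALDH1L1 21 to 50, while AQP4 was at 0. GFAP had 0 to 5 counts and SLC1A2 0 to 6. The 6 neuron markers summed to 4.0 to 4.38, 6.16 to 6.92 and 8.11 to 9.10 TPM, and were uneven as well. SNAP25 had 83 to 210 counts, SYT1 39 to 64, TUBB3 16 to 66, MAP2 0 to 48 and RBFOX3 0 to 1, while DCX was at 0. These marker levels and the mitochondrial share moved with treatment, as did many of the genes below, and their part in the results was not tested. In bulk RNA, fewer cells with a transcript and less of it per cell cannot be told apart.

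In autophagy, ATG8 proteins are attached to the lipid phosphatidylethanolamine on the growing autophagosome membrane. The LC3 and GABARAP subfamilies recruit different partners through a shared docking groove. Selective receptors carry a short LC3-interacting motif and, in most cases, a ubiquitin-binding domain, and so tie tagged cargo such as protein aggregates, damaged mitochondria or bacteria to the membrane. Receptors and lipidated ATG8 proteins inside the autophagosome are themselves degraded in the lysosome. Transcript levels report neither that turnover nor lipidation.

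Promoter sequence was examined because several of these genes are known targets of stress-responsive transcription factors, and the stretches shown are those that held a match. RefSeq promoter windows of 300 bases (GRCh38.p14, 250 before the start and 50 after) were matched by symbol for 9 of the 10 genes, in 14 windows, with no entry for MAP1LC3A. Both strands were searched for CACGTG (the E-box bound by TFEB and its relatives), TGACNNNGC (the core of the antioxidant response element), GTAAACA (a forkhead site), TGATGNAAT (a CEBP-ATF element) and TGACGTCA (the cyclic AMP response element, added after the promoters had been read). The first 4 letters of TGACNNNGC and TGACGTCA are shared. CACGTG was found in 0 of the 14 windows and in 7.26% of 35116 RefSeq windows, and TGATGNAAT in 0 windows and 0.991%. TGACNNNGC was found in 2 windows (13.4% of all), GTAAACA in 1 (3.42%) and TGACGTCA in 1 (1.85%). Capitals mark the matches, which start 46 bases before the RefSeq start in MAP1LC3B, 30 before it in GABARAPL1, and 226 (GTAAACA) and 129 (TGACNNNGC, on the minus strand) before it in CALCOCO2. In MAP1LC3B and GABARAPL1 an exon of another annotated transcript covers the match, so only 30 bases are shown, at chr16:87392280-87392309 and chr12:10212836-10212865, while the CALCOCO2 stretch, chr17:48830785-48831017, ends at the first annotated exon. All 3 are plus-strand genes.
MAP1LC3B: gcgagtcaccTGACCAGGCtgcgggctgag
GABARAPL1: ggctcgcggggTGACGTCAcagcccgacgc
CALCOCO2: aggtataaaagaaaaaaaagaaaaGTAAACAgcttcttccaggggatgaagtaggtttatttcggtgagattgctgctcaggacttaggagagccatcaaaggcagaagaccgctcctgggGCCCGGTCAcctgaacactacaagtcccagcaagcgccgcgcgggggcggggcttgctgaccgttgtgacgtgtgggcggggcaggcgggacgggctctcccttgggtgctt
A match is a description of these letters and says nothing about binding.

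Against VEH, 6 of the 10 genes rose in SLO, 2 fell and 2 did not pass the test, and the counts were the same in SLO ½. Genes were called at an adjusted p below 0.05 in edgeR's quasi-likelihood test, adjusted over all tested genes by the Benjamini-Hochberg method. Treatment changed much of the transcriptome: 32.9% of all tested genes were called higher and 32.1% lower in SLO, and for SLO ½ the shares were 26.7% and 25.3%. Without MAP1LC3A, 5 of 9 rose and 2 of 9 fell at each dose. The CPM values of VEH and treated libraries did not overlap for 8 of 10 genes at either dose (7 of the 9 without MAP1LC3A), as was the case for 66.7% (SLO) and 58.3% (SLO ½) of all tested genes. The median log2 fold change of the 10 genes was 0.41 for SLO and 0.30 for SLO ½, or 0.34 and 0.22 without MAP1LC3A, where the median over all tested genes was 0.014 and 0.015. Both doses were compared with the same VEH libraries, so the comparisons are not independent of each other.

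**Figure D1:**
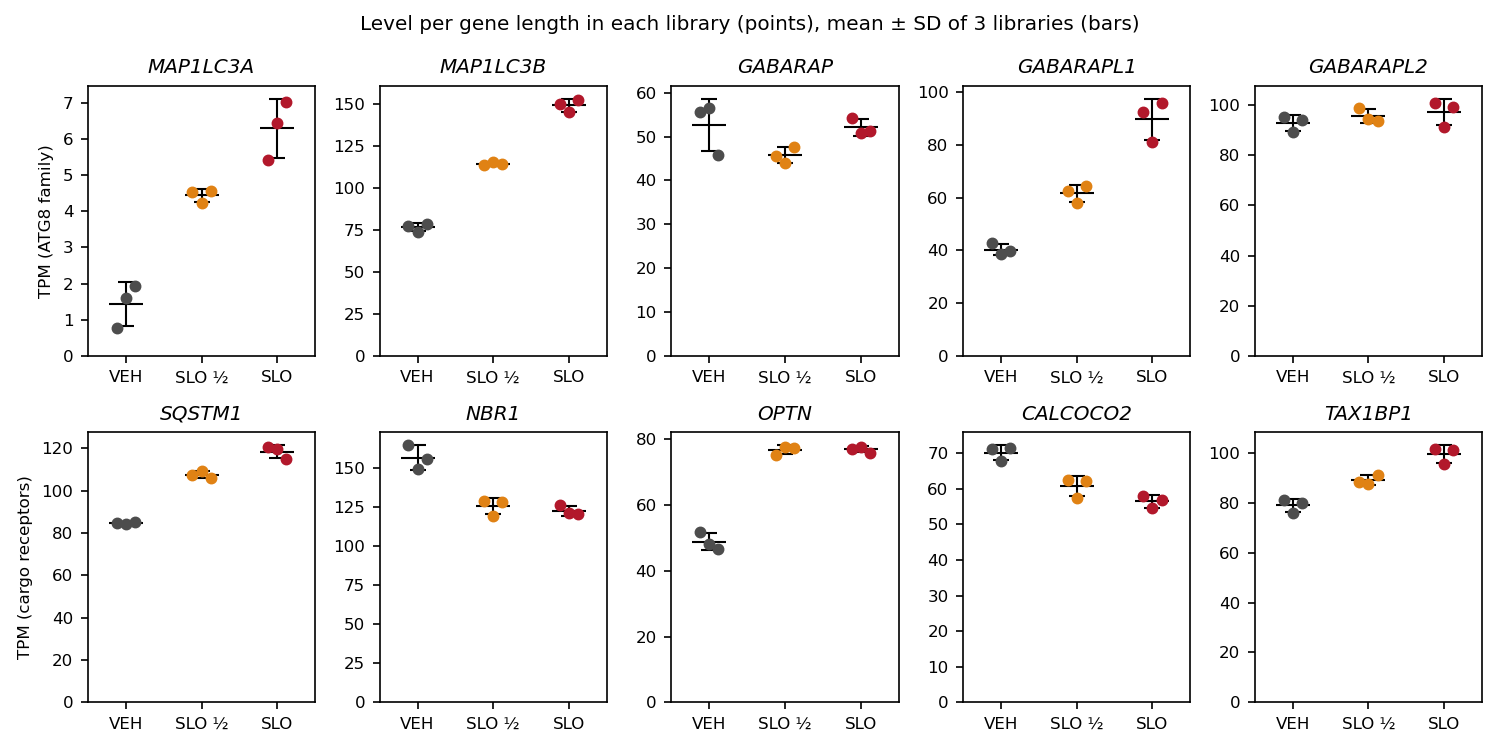
Level of each gene in TPM (vertical axes, from 0, different in each panel) in the 3 libraries of each group (points), with the mean and SD (bars). MAP1LC3B and GABARAPL1 step up at each dose, OPTN is at one level in both treated groups, GABARAP and GABARAPL2 overlap between VEH and SLO, and NBR1 and CALCOCO2 are lower in all treated libraries.

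MAP1LC3B (LC3B, chromosome 16, 87383953 to 87404779 on GRCh38, the build of all coordinates here) encodes the ATG8 protein most used to mark autophagosomes. Its level was 77.5, 73.9 and 78.9 TPM in the VEH libraries, 114, 116 and 115 in SLO ½, and 150, 145 and 153 in SLO. The 3 groups did not overlap, and the spread within each was small beside the steps between them. Its counts rose 1.54-fold in SLO ½ (log2 fold change 0.62 ± 0.0433 SE, adjusted p = 1.14e-12) and 1.95-fold in SLO (0.97 ± 0.0429, adjusted p = 1.2e-17). Of the 75-base windows along its main transcript, 15.7% also occur in the near-identical copy MAP1LC3B2, and reads matching several places were not counted. MAP1LC3B2 itself had 2 to 5 counts per library and was not tested.

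MAP1LC3A (LC3A, chromosome 20, 34546854 to 34560345) encodes a close relative of LC3B and was by far the lowest of the family. It had 3, 6 and 9 counts in VEH, 20, 19 and 19 in SLO ½, and 22, 27 and 26 in SLO. The counts of the treated libraries were all above those of VEH, though few reads carry the difference. The gene also passed the filter through the treated libraries alone, which limits what its p-values show. The fold change was 3.08 in SLO ½ (95% interval 1.87 to 5.07, adjusted p = 0.000294) and 4.24 in SLO (2.65 to 6.79, adjusted p = 2.85e-06). MAP1LC3C, the other LC3 gene, had 2 to 10 counts per library and was not tested.

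In the GABARAP subfamily, whose proteins act mainly at later steps of autophagosome closure and fusion, GABARAPL1 rose while the other members did not pass the test. GABARAPL1 (chromosome 12, 10212458 to 10223128) was at 42.7, 38.6 and 39.6 TPM in VEH, 62.6, 58.0 and 64.3 in SLO ½, and 92.5, 81.0 and 95.7 in SLO. As for MAP1LC3B, the 3 groups were fully separate and ordered by dose. Its counts rose 1.57-fold in SLO ½ (log2 0.65 ± 0.0626, adjusted p = 7.52e-10) and 2.23-fold in SLO (1.16 ± 0.0608, adjusted p = 5.16e-16). Over the 9 libraries the log2 CPM of GABARAPL1 and MAP1LC3B had a Pearson correlation of 0.986, across libraries that share the 3 treatment groups. GABARAPL3, annotated under separate identifiers, had 0 to 2 counts per library.

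GABARAPL2 (GATE-16, chromosome 16, 75566375 to 75577881) had the highest measured level of the ATG8 genes in VEH, with 95.5, 89.4 and 94.2 TPM. Its place against GABARAP is uncertain, since GABARAP was measured from part of its transcript, as given below. GABARAPL2 measured 98.7, 94.6 and 93.7 TPM in SLO ½ and 101, 91.2 and 99.4 in SLO. The groups overlapped, and the log2 difference from VEH was 0.069 in SLO (95% interval -0.036 to 0.17, adjusted p = 0.242) and 0.082 in SLO ½ (-0.022 to 0.19, adjusted p = 0.18). The interval leaves room for a small rise but not for one of the size seen in GABARAPL1. With library size as the only scaling, which moved the median of all genes in SLO to 0.089, GABARAPL2 was called at 0.14 in SLO (adjusted p = 0.0143) and 0.13 in SLO ½ (adjusted p = 0.0272).

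GABARAP (chromosome 17, 7240008 to 7242449) varied among the VEH libraries, at 55.6, 56.6 and 45.9 TPM. It was at 45.7, 43.9 and 47.6 TPM in SLO ½ and 54.2, 50.8 and 51.2 in SLO. The low VEH library lay within the range of SLO ½. The log2 difference was -0.0014 in SLO (95% interval -0.16 to 0.16, adjusted p = 0.989) and -0.15 in SLO ½ (-0.32 to 0.0077, adjusted p = 0.104). Without VEH replicate 3 the SLO ½ difference was -0.26 with an adjusted p of 0.00732, and it was also called by limma on log2(TPM + 1), at -0.19 (adjusted p = 0.0407). A read-through gene on the same strand (ENSG00000262526) covers 35.4% of the exon bases of GABARAP, and 49.6% of the 75-base windows along its main transcript. STAR counts reads that touch exons of both genes as ambiguous and assigns them to neither, and the read-through gene had 0 counts in all 9 libraries. GABARAP was thus measured from the rest of its transcript, and its level against other genes is uncertain.

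Summed over the 5 genes, the ATG8 family measured 264 ± 6.78 TPM with VEH, 322 ± 4.75 with SLO ½ and 395 ± 17.4 with SLO (mean ± SD, n = 3). The measured make-up shifted as well. GABARAPL2 held the largest measured share in VEH, 35.2% ± 0.906, and 24.6% ± 0.381 in SLO, while MAP1LC3B went from 29.1% ± 1.06 to 37.9% ± 0.795. The share of GABARAPL1 went from 15.3% ± 0.430 to 22.7% ± 0.987, and that of GABARAP from 19.9% ± 2.11 to 13.2% ± 0.524. In SLO ½ the shares were 29.7% for GABARAPL2, 35.6% for MAP1LC3B, 19.1% for GABARAPL1 and 14.2% for GABARAP. MAP1LC3A made up at most 1.73% of the sum in any library. The ratio of MAP1LC3B to GABARAPL2 was 0.812 to 0.837 with VEH, 1.15 to 1.22 with SLO ½ and 1.49 to 1.59 with SLO. The order of their measured TPM thus turned in all treated libraries. No test was made on sums, shares or ratios. Reads shared with other genes were not counted for GABARAP (49.6% of its 75-base windows) and MAP1LC3B (15.7%). The sums, shares and ratios are thus of measured TPM, and the true make-up is uncertain.

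**Figure D2:**
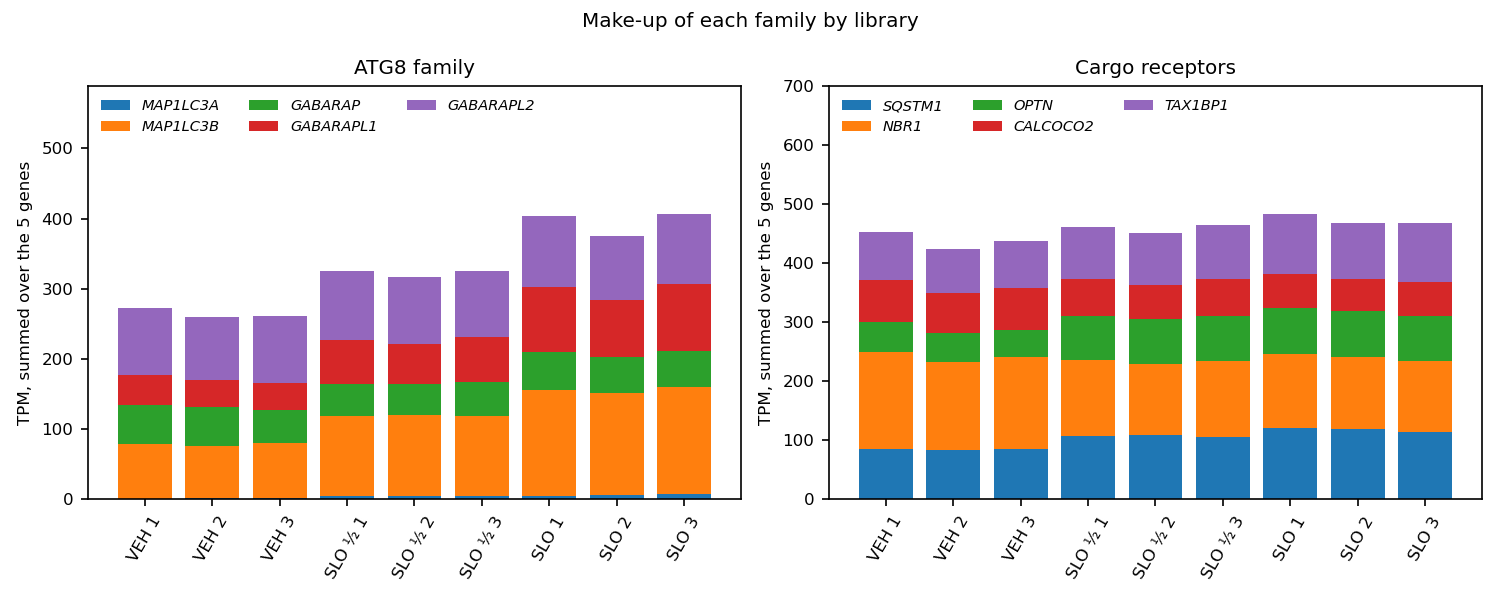
TPM of the 5 ATG8 genes (left) and the 5 cargo receptors (right), stacked for each of the 9 libraries. GABARAP was measured from part of its transcript. The ATG8 sum is 260 to 272 TPM with VEH and 375 to 406 with SLO, with the growth in MAP1LC3B and GABARAPL1, and the receptor sum is 425 to 453 with VEH and 468 to 483 with SLO.

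Among the receptors, 3 rose and 2 fell at both doses. SQSTM1 (p62, chromosome 5, 179806398 to 179838078) gathers ubiquitinated proteins into condensates and also binds KEAP1, the negative regulator of the oxidative stress factor NRF2. It was at 84.5, 84.4 and 85.1 TPM in VEH, 107, 109 and 106 in SLO ½, and 121, 120 and 115 in SLO. The VEH libraries lay within 1 TPM of each other and below all treated ones. Counts rose 1.31-fold in SLO ½ (log2 0.39 ± 0.0400, adjusted p = 3.11e-09) and 1.40-fold in SLO (0.49 ± 0.0400, adjusted p = 9.5e-12).

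OPTN (optineurin, chromosome 10, 13099449 to 13138308), a receptor for damaged mitochondria and bacteria that is phosphorylated by TBK1, showed the largest rise among the receptors at both doses. It was at 51.7, 48.1 and 46.8 TPM in VEH, 75.1, 77.6 and 77.4 in SLO ½, and 77.0, 77.7 and 75.9 in SLO. Both treated groups were at the same height, well above VEH. Counts rose 1.62-fold in SLO ½ (log2 0.70 ± 0.0487, adjusted p = 1.21e-12) and 1.58-fold in SLO (0.66 ± 0.0491, adjusted p = 1.16e-12).

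TAX1BP1 (chromosome 7, 27739331 to 27844564), which recruits the autophagy initiation machinery to protein aggregates, was at 81.1, 75.9 and 79.8 TPM in VEH, 88.5, 87.7 and 91.3 in SLO ½, and 102, 95.3 and 101 in SLO. The groups did not overlap, and the rises against VEH were the smallest among the genes that rose. Counts rose 1.16-fold in SLO ½ (log2 0.22 ± 0.0413, adjusted p = 6.31e-05) and 1.27-fold in SLO (0.34 ± 0.0413, adjusted p = 3e-08).

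NBR1 and CALCOCO2 went the other way. NBR1 (chromosome 17, 43170481 to 43211689), a partner of SQSTM1 in aggregate clearance, was the most abundant of the 10 transcripts in VEH, at 165, 149 and 155 TPM. It was at 129, 119 and 128 TPM in SLO ½ and 126, 121 and 120 in SLO, below VEH in all 6 treated libraries. Counts fell to 0.825 of VEH in SLO ½ (log2 -0.28 ± 0.0424, adjusted p = 2.86e-06) and to 0.788 in SLO (-0.34 ± 0.0426, adjusted p = 4.03e-08). CALCOCO2 (NDP52, chromosome 17, 48831018 to 48866522), a receptor for bacteria and damaged mitochondria, was at 71.2, 67.8 and 71.5 TPM in VEH, 62.6, 57.5 and 62.2 in SLO ½, and 57.9, 54.5 and 57.0 in SLO. Its counts fell to 0.891 of VEH in SLO ½ (log2 -0.17 ± 0.0429, adjusted p = 0.00172) and to 0.808 in SLO (-0.31 ± 0.0435, adjusted p = 4.46e-07).

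The receptors summed to 439 ± 14.1 TPM with VEH, 460 ± 7.16 with SLO ½ and 474 ± 8.37 with SLO (mean ± SD, n = 3), a smaller step than in the ATG8 family. NBR1 held 35.6% ± 0.667 of that sum in VEH and 25.9% ± 0.246 in SLO, while the share of OPTN went from 11.1% ± 0.404 to 16.2% ± 0.341. SQSTM1 took 18.6% to 19.8% of it in the VEH libraries and 24.5% to 25.5% in those of SLO. The ratio of SQSTM1 to NBR1 was 0.513 to 0.566 with VEH, 0.829 to 0.915 with SLO ½ and 0.955 to 0.986 with SLO. OPTN was below CALCOCO2 in every VEH library (ratio 0.654 to 0.726) and above it in every treated one (lowest 1.20, highest 1.43).

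Ordered by mean TPM, the genes in VEH ran from NBR1 (156) through GABARAPL2 (93.0), SQSTM1 (84.7), TAX1BP1 (78.9), MAP1LC3B (76.8), CALCOCO2 (70.2), GABARAP (52.7), OPTN (48.8) and GABARAPL1 (40.3) to MAP1LC3A (1.44). Neighbours whose libraries overlapped there were TAX1BP1 with MAP1LC3B and GABARAP with OPTN. In SLO ½ the order was NBR1 (125), MAP1LC3B (115), SQSTM1 (108), GABARAPL2 (95.7), TAX1BP1 (89.1), OPTN (76.7), GABARAPL1 (61.6), CALCOCO2 (60.8), GABARAP (45.8) and MAP1LC3A (4.44), with overlap only between GABARAPL1 and CALCOCO2. In SLO it was MAP1LC3B (149), NBR1 (123), SQSTM1 (118), TAX1BP1 (99.4), GABARAPL2 (97.2), GABARAPL1 (89.7), OPTN (76.9), CALCOCO2 (56.4), GABARAP (52.1) and MAP1LC3A (6.30). There NBR1 overlapped with SQSTM1, TAX1BP1 with GABARAPL2, and GABARAPL2 with GABARAPL1. The place of GABARAP in each order rests on part of its transcript and is uncertain. MAP1LC3B moved from the fifth place to the first.

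**Figure D3:**
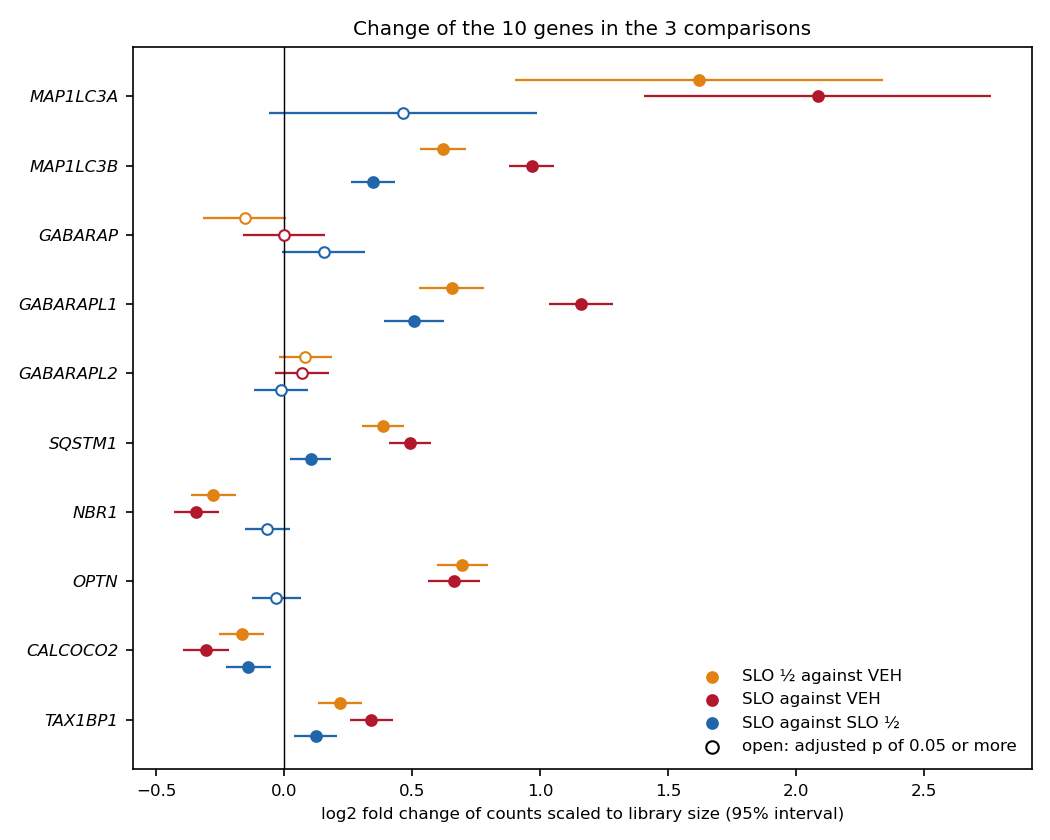
Log2 fold change of counts with its 95% interval (horizontal axis) for the 10 genes in SLO ½ against VEH (orange), SLO against VEH (red) and SLO against SLO ½ (blue), with open symbols where the adjusted p was 0.05 or more. MAP1LC3A has the widest intervals, and the blue intervals of OPTN (-0.13 to 0.063) and NBR1 (-0.16 to 0.020) include 0 while both genes differ from VEH at each dose.

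The step from SLO ½ to SLO asks which genes responded to more of the mixture. It was called higher for 4 genes (20.8% of all tested genes), lower for 1 (20.3%), and not for 5, and 7 genes did not overlap between the doses (51.0%), or 6 of the 9 without MAP1LC3A. GABARAPL1 rose by a further 1.42-fold (log2 0.51 ± 0.0570, adjusted p = 3.06e-08) and MAP1LC3B by 1.27-fold (0.35 ± 0.0412, adjusted p = 7.67e-08). The smaller differences were 0.12 for TAX1BP1 (adjusted p = 0.0167), 0.10 for SQSTM1 (adjusted p = 0.0363) and -0.14 for CALCOCO2 (adjusted p = 0.0106). These 3 calls were lost under some alternatives, while the differences stayed at 0.11 to 0.16 for TAX1BP1, 0.085 to 0.14 for SQSTM1 and -0.17 to -0.10 for CALCOCO2 over all 19. Without the expression filter SQSTM1 (adjusted p = 0.137) and TAX1BP1 (0.0502) were lost, and in the 3 limma fits of TPM CALCOCO2 was (0.0934 to 0.17). Without SLO ½ replicate 1 all 3 were lost (adjusted p = 0.0743 for TAX1BP1, 0.117 for SQSTM1 and 0.0553 for CALCOCO2). SQSTM1 was also lost without SLO ½ replicate 3 (0.168), SLO replicate 1 (0.121) or SLO replicate 2 (0.0865), TAX1BP1 without SLO replicate 1 (0.0727) or 3 (0.0786), and CALCOCO2 without SLO replicate 2 (0.0616).

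For OPTN the difference between the doses was -0.032 (95% interval -0.13 to 0.063, adjusted p = 0.621) and for NBR1 it was -0.067 (-0.16 to 0.020, adjusted p = 0.22), which leaves at most a small further change in either. MAP1LC3A differed by 0.46 (-0.061 to 0.99, adjusted p = 0.155), an interval too wide to place it. GABARAP differed by 0.15 (-0.0097 to 0.32, adjusted p = 0.128) and GABARAPL2 by -0.013 (-0.12 to 0.091, adjusted p = 0.858). Expressed as a share of the log2 change in SLO, the change in SLO ½ was 54.3% for CALCOCO2, 56.3% for GABARAPL1, 63.9% for TAX1BP1, 64.1% for MAP1LC3B, 77.8% for MAP1LC3A, 79.0% for SQSTM1, 80.5% for NBR1 and 105% for OPTN. Each share is a ratio of 2 estimates without an interval, so the order of the genes by share was not tested. That of MAP1LC3A rests on 3 to 27 counts per library.

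Related genes of the pathway are counted below beside the share of all tested genes, 32.9% higher and 32.1% lower in SLO, and 26.7% and 25.3% in SLO ½. The conjugation machinery that attaches ATG8 proteins to lipid held genes called in both directions. Of its 11 genes, all tested, 3 rose, 3 fell and 5 did not pass the test in SLO, with a median log2 fold change of -0.12. In SLO ½ 3 rose and 2 fell, with a median of -0.069. ATG4C, a protease that processes ATG8 proteins, fell by 0.66 on the log2 scale in SLO (adjusted p = 1.46e-08) and by 0.62 in SLO ½ (adjusted p = 6.65e-08). The related proteases ATG4A and ATG4B rose by 0.49 (adjusted p = 1.4e-05) and 0.33 (adjusted p = 3.73e-06) in SLO. ATG3, the E2-like enzyme of the reaction, fell by 0.40 (adjusted p = 3.03e-08), from 82.0 ± 3.89 to 61.9 ± 2.93 TPM. ATG7, the E1-like enzyme, fell by 0.42 (adjusted p = 4.98e-05), and ATG16L1, part of the E3-like complex, rose by 0.19 (adjusted p = 0.00872). These last 2 were named after their values were seen, to complete the counts.

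The other selective receptors included genes called in both directions. Of 18 genes, 10 rose, 7 fell and 1 did not pass the test in SLO (median 0.20), and 5 rose and 5 fell in SLO ½ (median 0.059). PHB2, a mitophagy receptor of the inner mitochondrial membrane, fell by 0.61 in SLO (adjusted p = 2.7e-13), and BNIP3 by 0.60 (adjusted p = 3.09e-13) and BNIP3L by 0.34 (adjusted p = 1.45e-08), both of the outer membrane. BCL2L13, another mitophagy receptor, rose by 0.28 (adjusted p = 2.16e-05), and was named after its values were seen. BNIP3L, with 734 TPM in VEH, and BNIP3 were the most abundant genes of this list in VEH. BNIP3 was at 603 ± 31.8 TPM with VEH, 455 ± 9.65 with SLO ½ and 397 ± 7.27 with SLO. CCPG1, a receptor for the endoplasmic reticulum, rose by 0.57 in SLO (adjusted p = 5.95e-08) and 0.28 in SLO ½ (adjusted p = 0.00202).

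Of 13 ATG8-binding adaptors and fusion factors 12 were tested, VAMP8 having 2 to 12 counts per library. In SLO 2 rose, 4 fell and 6 did not pass the test (median -0.0052), and in SLO ½ 4 rose, 7 fell and 1 did not (median -0.12). TBC1D5, a RAB7 GTPase-activating protein with an LC3-interacting motif, fell by 0.74 in SLO (adjusted p = 3.74e-13) and 0.78 in SLO ½ (adjusted p = 4.12e-13), with means of 28.7 ± 0.930 TPM (VEH), 16.3 ± 0.863 (SLO ½) and 17.1 ± 0.538 (SLO). FYCO1, which links autophagosomes to kinesin, fell by 0.55 (adjusted p = 3.8e-09), and EPG5, a tether for fusion with lysosomes, by 0.54 (adjusted p = 3.54e-08) in SLO. SNAP29, a SNARE of the autophagosome, rose by 0.42 (adjusted p = 2.98e-09). The counts in SLO are completed by PLEKHM1 (0.37, adjusted p = 4.02e-05) and TBC1D15 (-0.27, adjusted p = 2.75e-05), named after their values were seen. Also named after their values were seen are genes called in SLO ½ but not in SLO. STX17 fell by 0.34 in SLO ½ (adjusted p = 1.54e-05), and its difference in SLO was 0.029 (adjusted p = 0.671). YKT6 and RAB7A were higher and VPS39 and VPS41 lower in SLO ½ (adjusted p 0.00434 to 0.0476). With library size only, 5 genes of this list were called lower in SLO ½, in place of 7.

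Among 12 regulators known to act on these genes or their products, 5 rose, 2 fell and 5 did not pass the test at each dose (medians 0.11 for SLO and 0.071 for SLO ½). FOXO1, a forkhead factor, rose by 1.24 in SLO (adjusted p = 6.64e-11), from 5.16 ± 0.939 to 12.3 ± 0.921 TPM, and by 0.53 in SLO ½ (adjusted p = 0.000468). MITF, of the TFEB family, rose by 0.89 in SLO (adjusted p = 3.35e-13) and 0.43 in SLO ½ (adjusted p = 2.04e-06). TBK1, the kinase of OPTN, rose by 0.23 in SLO (adjusted p = 9.85e-05) and 0.18 in SLO ½ (adjusted p = 0.00203). ATF4, the transcription factor of the integrated stress response, fell by 0.41 in SLO (adjusted p = 1.07e-09) and by 0.13 in SLO ½ (adjusted p = 0.0124), where its libraries overlapped with those of VEH. That call was lost with library size only (-0.075, adjusted p = 0.126) and without SLO ½ replicate 1 (-0.11, adjusted p = 0.0541) or 3 (-0.10, adjusted p = 0.0836). The other regulator called lower in SLO ½, named after its values were seen, was FOXO3 (-0.31, adjusted p = 1.26e-05). Named after their values were seen, TFEB (0.60, adjusted p = 0.000359) and DDIT3 (0.32, adjusted p = 0.00128) complete the genes that rose in SLO. For NFE2L2, which encodes NRF2, the log2 difference in SLO was 0.063 (adjusted p = 0.201), and this gene was named for its link to SQSTM1 after its values were seen.

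**Figure D4:**
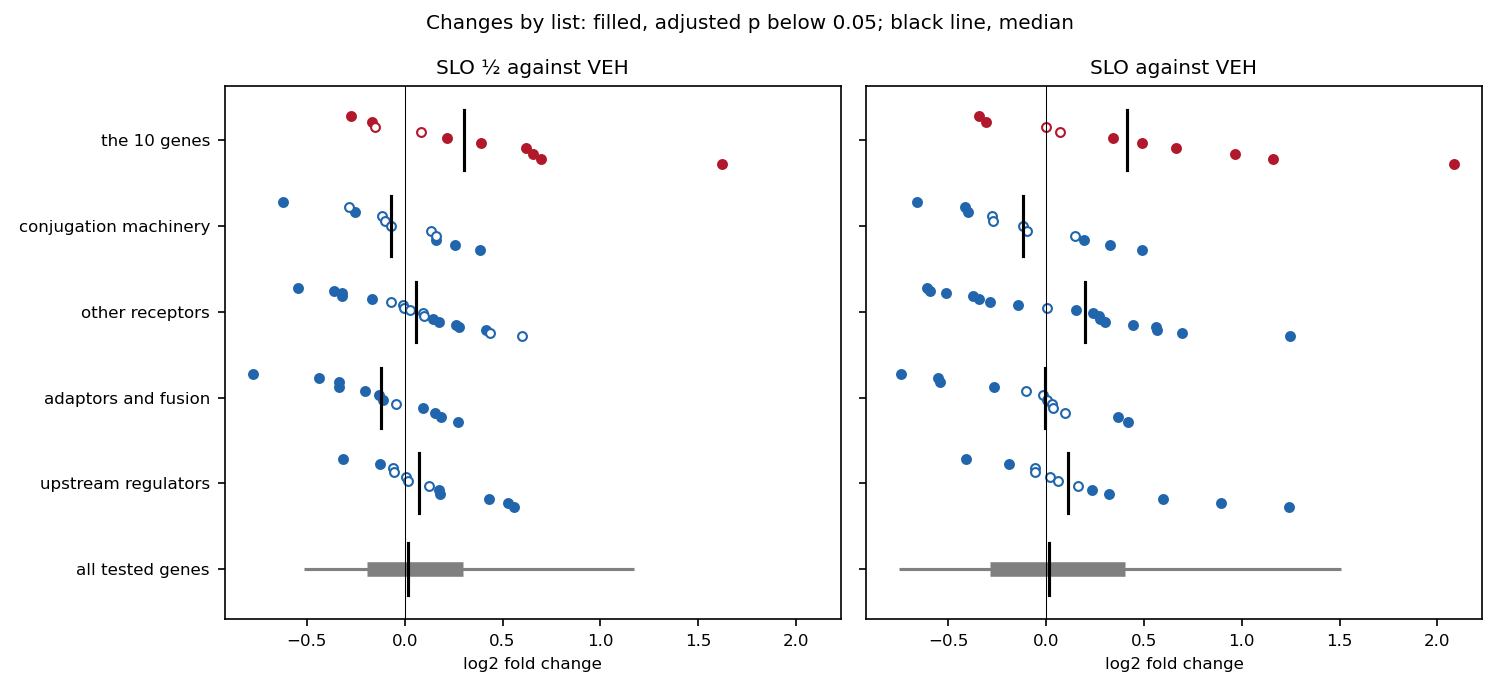
Log2 fold change against VEH (horizontal axis) of the 10 genes (red) and of 4 lists of related genes (blue) in SLO ½ (left) and SLO (right), each point a gene and filled where its adjusted p was below 0.05, with black lines for medians. The grey bars give the 5th to 95th (thin) and 25th to 75th (thick) percentiles of all tested genes, and the medians of the 4 lists lie between -0.12 and 0.20.

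Likeness in pattern was measured as the Pearson correlation of log2 CPM over the 9 libraries with 10434 protein-coding genes, for the ATG8 gene and the receptor with the smallest p in SLO. For MAP1LC3B the closest were TP53I3 (0.998), MYL12A (0.998) and HSPA2 (0.998), and 846 genes exceeded 0.95. MYL12A, a myosin light chain, had means of 204 ± 11.9 TPM (VEH), 328 ± 3.76 (SLO ½) and 450 ± 24.7 (SLO). For OPTN the closest were APOL1 (0.998), KRT17 (0.996) and MATN3 (0.992), and 240 genes exceeded 0.95. APOL1 had the same flat step between doses, at 5.23 ± 0.676, 18.3 ± 0.441 and 17.3 ± 1.14 TPM. The 9 libraries form 3 treatment groups, so a high correlation mostly restates the group means.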

How the data were processed

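Polyadenylated-RNA libraries of 9 HMC3 samples were trimmed by the authors with Trimmomatic 0.38 and aligned to GRCh38 with STAR 2.7.1a, per the labels. The authors deposited stranded, unnormalized counts of uniquely aligned reads per gene, and TPM values, which sum to the same total in each library. How gene length was set for TPM, the annotation release and the read length are not given in the sources used here. Groups were taken from the sample labels.

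The count model was edgeR 4.0.16 in R 4.3.3 (filterByExpr, TMM factors 0.968 to 1.03, quasi-likelihood test, 3 groups, no covariate, all 9 libraries), with Benjamini-Hochberg adjustment over 14727 genes and calls at an adjusted p below 0.05. The common biological coefficient of variation was 3.76%. Rows without a gene were left out: reads matching several places (7.16% to 8.52%), ambiguous (3.03% to 3.26%), outside genes (5.54% to 8.38%) and unmapped (0.883% to 0.984%). Levels between genes were compared in TPM. Overlaps and repeated 75-base windows were read from GENCODE v44, whose positions of these genes match the files. The window length was chosen here. Scripts were tested on simulated data.

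The 10 genes, the related lists and the tests were chosen with earlier results of these data known. Each list is represented by its 4 called genes of smallest p (full dose against VEH), and for likeness the 3 protein-coding genes with the highest correlation and an average log2 CPM of at least 2. Alternatives were each library left out, a replicate block, fits of only the 2 groups in question, a minimum of 10 counts per library or no filter, scaling by library size alone or by DESeq2 size factors, DESeq2 1.42.0 itself, and limma 3.58.1 on log2(TPM + 1), with and without the filter, and on log2(TPM + 0.1).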

Additional observations from a re-analysis of the deposited data

How the results depend on the processing

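Without MAP1LC3A, the 5 genes called higher and 2 called lower against VEH kept direction and call at both doses in all 19 alternative runs. MAP1LC3A did so in 18, and could not be tested with at least 10 counts in every library. Its difference was built into its passing the filter, so its runs are no separate support. In SLO against SLO ½, 2 genes were called higher without the expression filter, and none lower (0 genes) by limma on log2(TPM + 1), filtered or not, or log2(TPM + 0.1). Leaving out 1 library gave 2 to 4 genes higher (2 without SLO ½ replicate 1 or SLO replicate 1) and 0 to 1 lower (0 without SLO ½ replicate 1 or SLO replicate 2). Unfiltered limma called 1773 of all genes lower in that comparison, against 2996. Signs turned only where the difference was not called. GABARAP in SLO against VEH was 0.073 with library size only, 0.022 with at least 10 counts and 0.0012 with only the 2 groups, and -0.10 to 0.045 leaving out 1 library. GABARAPL2 in SLO against SLO ½ was 0.011 with library size only, 0.021 (log2(TPM + 1), filtered or not) or 0.022 (log2(TPM + 0.1)) by limma, and -0.043 to 0.032 leaving out 1 library. OPTN was 0.0030 by limma in each of its 3 forms. The cause was not tested. In SLO ½ against VEH, regulators called higher numbered 3 in place of 5 by limma in its 3 forms, regulators called lower 1 in place of 2 (ATF4 lost) with library size only or without SLO ½ replicate 1 or 3, and other receptors called higher 8 in place of 5 with library size only. Library size only made 59.2% of calls in SLO higher, against 50.6%, and limma on log2(TPM + 1) made 58.1% higher in SLO against SLO ½, against 50.5%.

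Deviations of same-numbered libraries from their group means correlated at 0.0028 to 0.087 over 9 pairs, and at -0.062 to 0.037 over 18 pairs with different numbers. Values this small cannot tell whether the numbers mark shared cultures. The labels do not say so, and the main fit did not pair the samples. With a replicate block, 6 genes were higher and 2 lower in SLO against VEH, and 4877 and 4745 of all genes, and no call among the 10 genes changed. MAP1LC3A, with 3 to 27 counts per library, is limited by depth.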
